A study of Schizosaccharomyces pombe with 24 samples.

Results

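The core histone genes of the fission yeast Schizosaccharomyces pombe encode the 4 proteins around which nucleosomal DNA is wrapped. The members were chosen by gene name in an annotation of the whole series: hht1, hht2 and hht3 (histone H3), hhf1, hhf2 and hhf3 (histone H4), hta1 and hta2 (histone H2A) and htb1 (histone H2B). All 9 names were found, each once, among the 12633 genes of that annotation, of which 5113 were protein-coding. Each member had 1 gene row, 1 mRNA row and 1 coding row, and genes of 1 histone had equal or nearly equal coding lengths: 411 bases for each H3 gene, 312 for each H4 gene, 399 and 396 for hta1 and hta2, and 381 for htb1. These code for 136, 103, 132, 131 and 126 residues, start codon included.

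The series holds 24 ChIP-seq libraries, 1 per group, made with antibodies against H3 that carries 2 or 3 methyl groups on lysine 9 (9me2 and 9me3 in the labels). Each antibody was used at the ectopic site on swi6D, swi6Dmst2D, swi6Dset1D, swi6Dmst2Dset1D (swi6Dset1Dmst2D in the 9me3 label), set1Dmst2D, clr4D and WT cells, which all carried ura4D::10xteto-ade6+. That allele is a reporter of 10 tet operators, the binding sites of the tet repressor, beside ade6+, an adenine synthesis gene, in place of ura4. At the endogenous site it was used on swi6D, swi6Dmst2D, swi6Dset1D, swi6Dmst2Dset1D and WT cells, which all carried cenHD::10xteto-ade6+, the reporter in place of cenH. No strain in the series is without the reporter. The D marks a deletion: clr4 encodes the lysine 9 methyltransferase, swi6 an HP1 protein, mst2 a histone acetyltransferase and set1 the lysine 4 methyltransferase. The data analysed here are 2 genome annotations with feature starts and ends and no value per library, so levels of either mark at the histone genes are not analysed here and every value below describes a gene model, without replicates. One has its reporter among the mating-type genes on chromosome II and is called the endogenous-site annotation. The other has it on chromosome III and is called the ectopic-site annotation. No label ties either to a set of strains, and the names follow the reporter. In the endogenous-site annotation the identifier of the reporter contains tetoura4, whereas the allele of the endogenous-site strains is named with ade6+. Whether both are the same construct is not known here.

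A nucleosome core holds a tetramer of H3 and H4 flanked by dimers of H2A and H2B, and the lysine read by both antibodies lies in the N-terminal tail of H3. Cells make most of their histone mRNA when DNA is replicated. In fission yeast the histone genes share a promoter element whose core is AACCCT, and the GATA-type factor Ams2 is known to act on histone genes through it. H3 and H4 genes lie in divergent pairs, so that the promoters of both partners share 1 stretch of DNA.

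The letters AACCCT were searched on both strands, from 250 bases before to 50 bases after each gene start, in the assembly ASM294v3. The 9 members matched ASM294v3 by identifier, with the same coding and untranslated lengths as in the endogenous-site annotation. All 9 promoters held AACCCT, against 9.7% of the 5113 protein-coding promoters, and all 9 held it at least 2 times, against 0.704%. In all 9 the word stood in tandem, which by itself gives 2 matches, against 0.391%. These shares include the members: of the 20 promoters with the tandem word, 9 are theirs. AACCCT was chosen because it is known from histone genes of this yeast. The tandem word also came up as a word shared by these same 9 promoters. The shares therefore describe the promoters and are no test. Partners of a pair shared 1 element, so the 9 promoters rested on 5 elements. The 4 elements below are shown because the tandem word is common to them while the flanks differ between loci. Coordinates of these sequences are those of ASM294v3. The endogenous-site annotation has other ones for hht3-hhf3, because bases were inserted to its left. Each is printed 5′ to 3′ on the strand that reads AACCCT, as 30 bases with the tandem word in capitals.

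hht1 and hhf1, I:4699643-4699672, plus strand: ctgcatcaaAACCCTAACCCTgcttttgat

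hht2 and hhf2, II:1365051-1365080, minus strand: gtcaatcacAACCCTAACCCTgatttaaga

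hht3 and hhf3, II:3529618-3529647, plus strand: tttgatcacAACCCTAACCCTttaattaaa

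hta2, I:4053362-4053391, minus strand: atccatcaaAACCCTAACCCTgtatattgc

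The 4 letters atca and 1 further base preceded the tandem word in the 4 elements shown. The stretches of hht2-hhf2 and hht3-hhf3 shared 17 bases, atcacaaccctaaccct. Those of hht1-hhf1 and hta2 had another letter at that further base. They shared 19 bases, catcaaaaccctaaccctg, which occurred 3 times in the genome and in 4 promoters, 3 of them of members. A match describes these letters and is not a measured binding site.

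The elements lay 47 to 128 bases before the gene starts. They were 47 bases from the start of hht2 and of htb1, 52 from hhf1 and hta2, 61 from hht3, 68 from hht1, 75 from hhf2, 118 from hta1 and 128 from hhf3. As no 5′ untranslated row was listed for hhf3, its gene start is its coding start. Counted to the coding start, the distances were 86 bases for hht2 and 97 for hht3, but 377 for hta1. The word read toward hht1, hhf2, hhf3, hta1 and hta2, and away from their 4 partners. The direction was thus not tied to the histone encoded: it pointed to the H3 gene in 1 of the 3 H3-H4 pairs and to the H4 gene in the other 2.

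**Figure D1:**
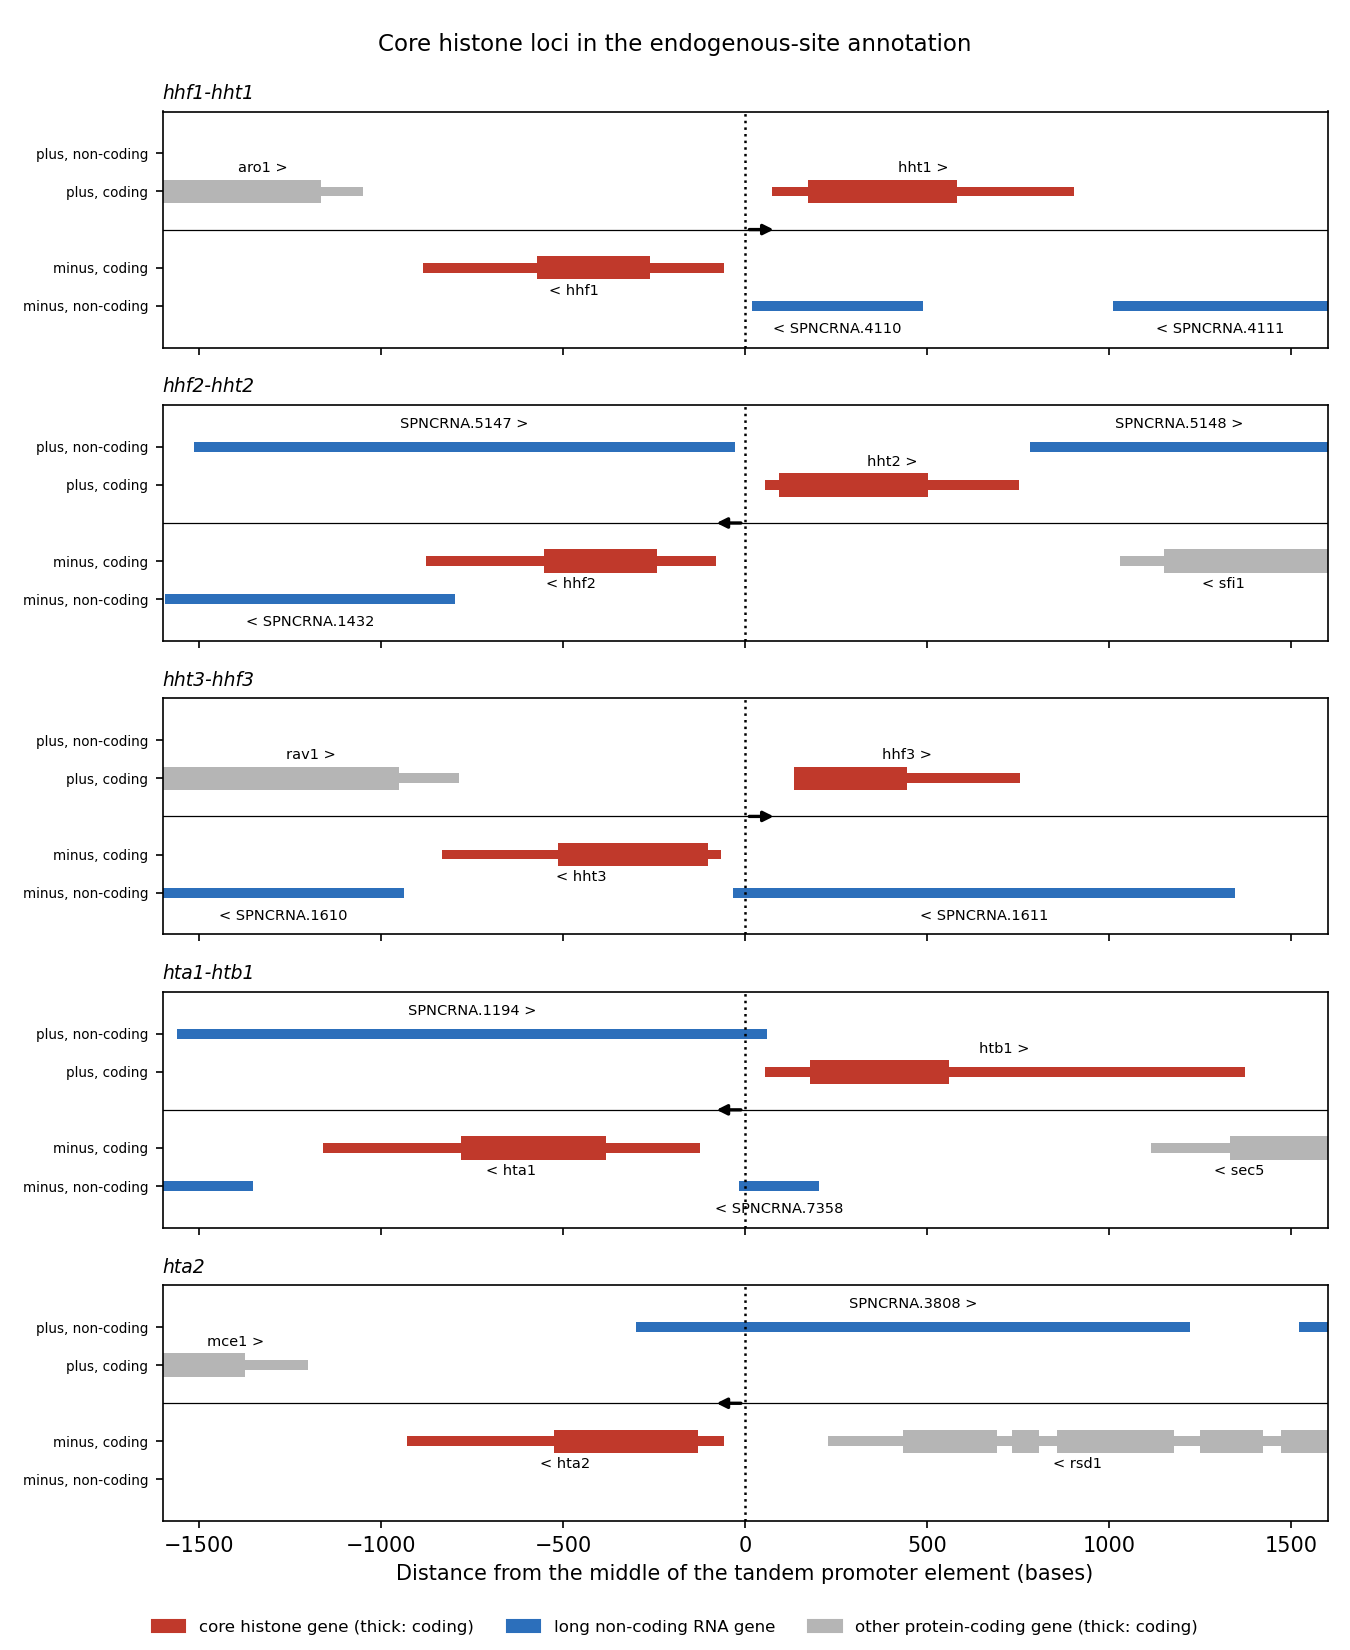
Genes around the 5 elements in the endogenous-site annotation, by distance in bases from the middle of the element (dotted line), with plus-strand genes above and minus-strand genes below the line. The black arrow gives the direction in which AACCCT reads, and the core histone genes (red) start 47 to 128 bases from the element, with long non-coding RNA genes in blue and other protein-coding genes in grey. The 128 bases are those of hhf3, which has no 5′ untranslated row.

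The members formed 4 divergent pairs and 1 lone gene. The gene starts of hhf1 and hht1 were 132 bases apart, those of hhf2 and hht2 134, those of hht3 and hhf3 201, and those of hta1 and htb1 177. All 4 gaps fell in the narrow part of the range for divergent protein-coding neighbours. Of the 1396 such pairs 26.5% had a gap of 201 bases or less, and the median was 712 bases. Between coding starts the order was another one: 237 bases for hht3-hhf3, 334 for hhf2-hht2, 432 for hhf1-hht1 and 561 for hta1-htb1. The gap that was widest between gene starts was therefore the narrowest between coding starts. That gap of 201 bases runs to the coding start of hhf3, for which no 5′ untranslated row was listed. The lone hta2 had no divergent histone partner. Its neighbour on the 5′ side was rsd1, on the same strand 285 bases away, and on its 3′ side mce1 lay 271 bases away on the other strand.

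**Figure D2:**
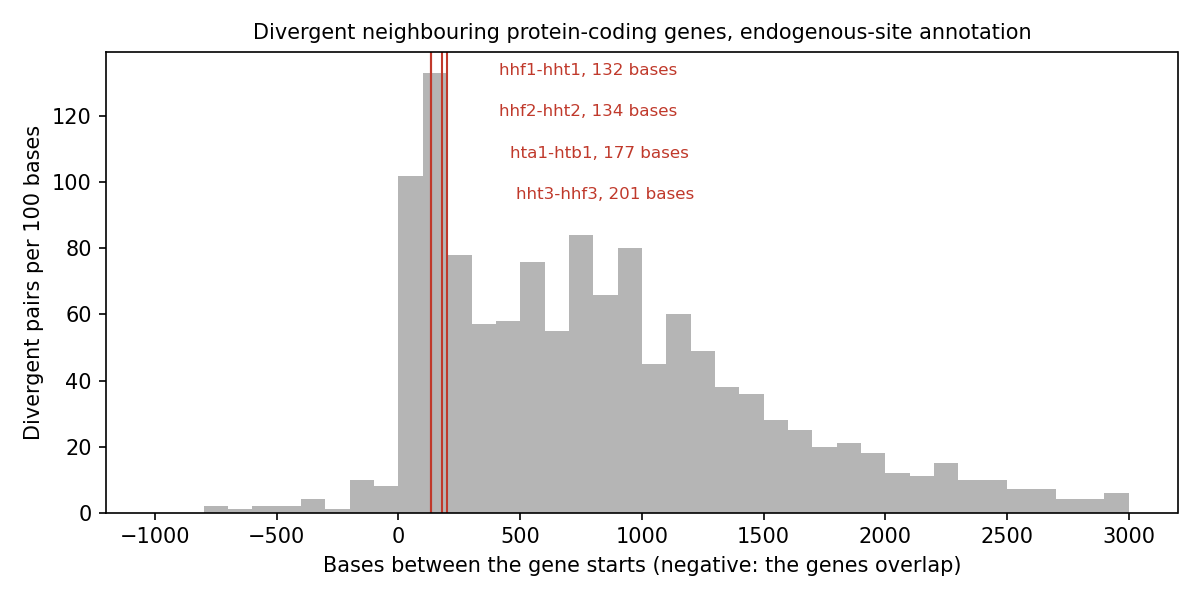
Number of divergent neighbouring protein-coding pairs per 100 bases of distance between their gene starts, for the 1245 of 1396 pairs from -1000 to below 3000 bases; the other pairs are not drawn. Red lines mark the 4 histone pairs, which lie between 132 and 201 bases, below the median of 712.

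Histone H3, the carrier of lysine 9, was encoded at 3 loci. The hht1 gene (SPAC1834.04) lay on the plus strand of chromosome I at 4699732 to 4700560, hht2 (SPBC8D2.04) on the plus strand of chromosome II at 1365119 to 1365818, and hht3 (SPBC1105.11c) on the minus strand of chromosome II at 3535339 to 3536104. Their 5′ untranslated parts were 97, 39 and 36 bases long and their 3′ untranslated parts 321, 250 and 319 bases. The hht1 gene had the longest of both among the H3 genes.

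The H4 genes were hhf1 (SPAC1834.03c, chromosome I, minus strand, 4698773 to 4699599), hhf2 (SPBC8D2.03c, chromosome II, minus strand, 1364189 to 1364984) and hhf3 (SPBC1105.12, chromosome II, plus strand, 3536306 to 3536927). Their 5′ untranslated parts measured 203 bases in hhf1 and 161 in hhf2. In hhf3 no 5′ untranslated row was listed, so that its gene started at the coding start, as in 11.7% of protein-coding genes. The 3′ untranslated parts were alike, at 312, 323 and 310 bases. The 5′ row of hhf1 was listed 2 times with the same coordinates, which was the case for 3 untranslated rows in the whole annotation, and it was counted once.

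The H2A gene hta1 (SPCC622.08c, chromosome III, minus strand, 1409337 to 1410374) had 259 untranslated bases at the 5′ end and 380 at the 3′ end. The second H2A gene, hta2 (SPAC19G12.06c, chromosome I, minus strand, 4052446 to 4053318), had 71 and 406. The single H2B gene, htb1 (SPCC622.09, chromosome III, plus strand, 1410552 to 1411870), had 125 and 813. The 3′ part of htb1 exceeded its coding length of 381 bases, and 71.1% of its mRNA was untranslated. In the other members the untranslated share ran from 41.3% in hht2 to 62.3% in hhf1.

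None of the 9 members had an intron, in either annotation or in ASM294v3. Of all protein-coding genes 51.9% had none, so this trait is common. The median 5′ untranslated length was 97 bases in the members, against 79 in all protein-coding genes, and the median 3′ length 321 against 243 bases. Neither stood far from the middle: 55.9% and 62.2% of all genes were at or below the members' medians. The order of the 5′ medians turned round in the ectopic-site annotation, with 138 bases in the members against 155 in all its protein-coding genes, of which 46.4% were at or below the members' median. Coding length, by contrast, stood far from the middle, with a median of 396 bases against 1140. At or below the members' median were 10.4% of genes.

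The 5′ ends depended on which annotation was read, and the 3′ ends did not. In all 9 members the 5′ untranslated length differed between the annotations, whereas coding and 3′ lengths were equal in all 9. Over the 5095 protein-coding genes with coding rows in both, the 5′ length differed in 94.3%, the 3′ length in 0.667% and the coding length in 2.67%, so the members followed the genome here. The H3 genes had 97, 39 and 36 bases in the endogenous-site annotation, against 138, 117 and 128 in the ectopic-site annotation. The hhf3 gene, with none, had 110 bases in the ectopic-site annotation. The 5′ part of hhf2 measured 161 against 220 bases, that of hta1 259 against 292 and that of hta2 71 against 150. Only hhf1, at 203 against 148 bases, and htb1, at 125 against 97, were longer in the endogenous-site annotation.

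**Figure D3:**
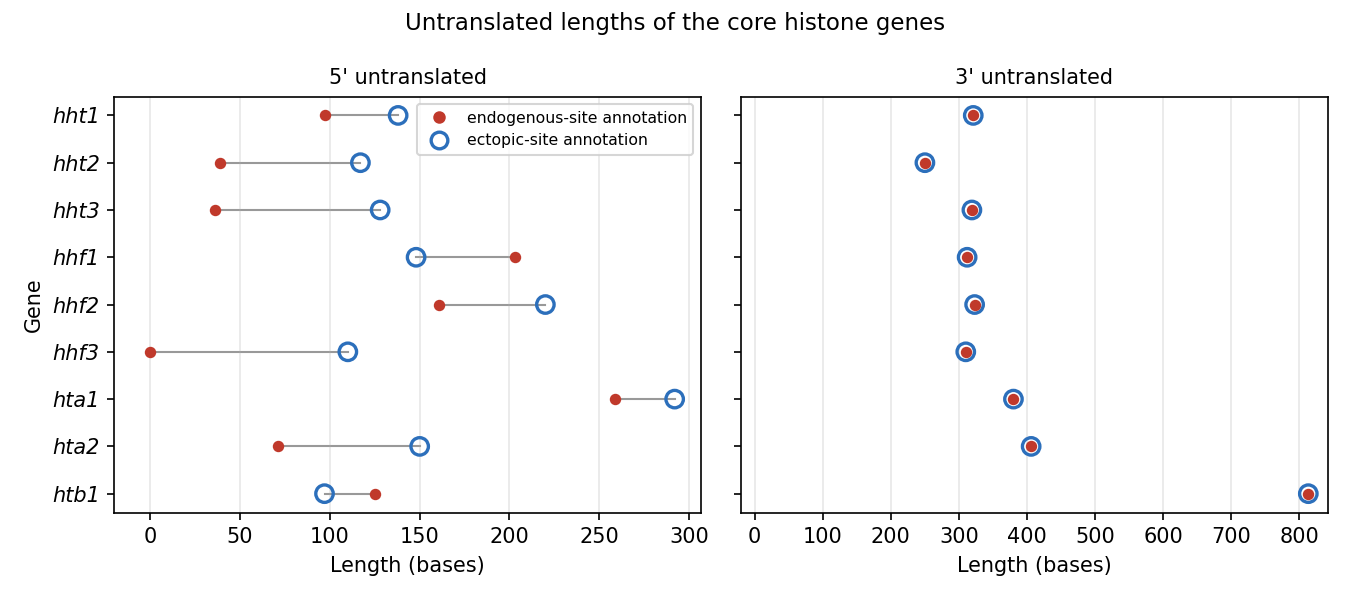
Length in bases of the 5′ (left) and 3′ (right) untranslated part of each core histone gene in the endogenous-site annotation (red points) and the ectopic-site annotation (blue circles). The 5′ lengths differ in all 9 genes and the 3′ lengths coincide in all 9.

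The place of the promoter element relative to the transcribed part differed with it. In the endogenous-site annotation none of the members had the element inside its 5′ untranslated part. In the ectopic-site annotation it lay wholly inside that of 3 members, hht2, hht3 and hta2. There the gene starts of hhf2 and hht2 overlapped by 3 bases and those of hht3 and hhf3 by 1 base, so no gap was left between these partners. The gaps of hhf1-hht1 and hta1-htb1 were 146 and 172 bases in that annotation. The distances between coding starts were the same in both. A promoter window counted from the gene start would thus cover other bases in the 2 annotations. Some members were displaced as a whole. The coding start in the endogenous-site annotation minus that in the ectopic-site annotation was 6539 bases for hht3 and hhf3, -1213 bases for hta1 and htb1 and 0 for the other 5 members.

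In the endogenous-site annotation, genes on the other strand overlapped 7 of the 9 members, against 89.9% of all protein-coding genes, and long non-coding RNA genes did so at 6 of 9, against 75.5%. Both shares lie near the background, slightly below it here and slightly above it in the ectopic-site annotation, given below. The differences were not tested. The exceptions in the endogenous-site annotation were hhf1 and hht2, which no gene overlapped on the other strand. A single other-strand gene covered at least 50% of 3 members, against 45.7% of all protein-coding genes, and a single non-coding one did so for 3, against 34.6%. In the ectopic-site annotation, other-strand genes overlapped 6 members, against 57.9% of its protein-coding genes, and other-strand non-coding genes 2, against 21.2%. The members without an overlap in that annotation were hht1, hhf1 and hta2, and for hht2 and hhf2 it was the few bases that these partners share. At their 3′ ends, in both annotations, hht3 shared 46 bases with rav1 and htb1 258 bases with sec5, an exocyst gene, both convergent protein-coding neighbours. Neither overlap reached a coding sequence of the histone gene.

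The non-coding overlaps reached further. SPNCRNA.5147 (chromosome II, plus strand, 1363550 to 1365036) covered all 796 bases of hhf2. SPNCRNA.1611 (chromosome II, minus strand, 3536138 to 3537517) covered all 622 bases of hhf3. SPNCRNA.1194 (chromosome III, plus strand, 1408938 to 1410557) covered all 1038 bases of hta1. Thus 3 of 9 members were covered whole by a single non-coding gene, against 6.96% of protein-coding genes and 13.4% of the 1567 that were no longer than htb1, the longest member. In part, SPNCRNA.4110 (chromosome I, minus strand, 4699677 to 4700145) covered 414 bases of hht1 (49.9%), with 77.1% of its coding bases. SPNCRNA.3808 (chromosome I, plus strand, 4053077 to 4054599) covered 242 bases of hta2 (27.7%). SPNCRNA.7358 (chromosome III, minus strand, 1410482 to 1410702) covered 151 bases of htb1 (11.4%), 26 of them coding.

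In each of the 4 pairs a non-coding gene lay across 1 partner and ended close to the start of the other, on that other partner's strand. SPNCRNA.4110 ended 77 bases before hhf1, SPNCRNA.5147 82 bases before hht2 and SPNCRNA.1611 33 bases before hht3. SPNCRNA.1194 ran 6 bases into htb1. Of all divergent protein-coding pairs 90.4% had a partner overlapped by such a gene on its other strand. An end within 100 bases of the other partner's start was less common, at 6.81% of the 1396 pairs and 13.5% of the 370 pairs with gaps of 201 bases or less. Both sets include pairs whose genes overlap. The limit of 100 bases was set after the values were seen. The overlapped partners were hht1, hhf2, hhf3 and hta1, the same ones toward which the promoter element read. This match in 4 of 4 pairs was noticed in the data and was not tested. SPNCRNA.7358, which overlaps htb1, stopped 107 bases before hta1, just past the limit, so at a wider one the fourth pair would have a non-coding gene in each direction.

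These non-coding genes were mostly listed in 1 of the annotations. Of the 6 on the other strand of members, 2 (SPNCRNA.1611 and SPNCRNA.1194) were in the ectopic-site annotation and all 6 in ASM294v3. The ectopic-site annotation describes both as predicted antisense RNA and as possible alternative untranslated ends. The endogenous-site annotation listed 7157 long non-coding RNA genes in all, against 1566 genes of miscellaneous RNA in the ectopic-site annotation. On the strand of the gene itself, SPNCRNA.1432 overlapped the last 79 bases of hhf2. SPNCRNA.5148 began 30 bases past the end of hht2.

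Among protein-coding genes, the first neighbour on the 5′ side was another member for 8 of the 9 members. With non-coding genes counted, it was so for 4. Both counts leave out genes that overlap the member. In these 4 (hht1, hhf2, hhf3 and htb1) an overlapping non-coding gene on the other strand reached past the member's start into the gap. The 3′ sides were less alike. Among the paired members, the nearest protein-coding gene there that did not overlap was aro1, of aromatic amino acid synthesis, 166 bases past hhf1. Next came sfi1, of the spindle pole body, 276 bases past hht2. The 271 bases from hta2 to mce1, given above, lie between these. SPBC1105.13c lay 854 bases past hhf3, SPCC622.07 1000 bases past hta1, alg9, a mannosyltransferase gene, 1707 bases past hht1 and vps68 2019 bases past hhf2. Leaving aside the overlapping rav1 and sec5, ubc15, a ubiquitin-conjugating enzyme gene, lay 4654 bases past hht3 and lmb1 3575 bases past htb1. The span of a whole pair was 1788 bases for hhf1-hht1, 1630 for hhf2-hht2, 1589 for hht3-hhf3 and 2534 for hta1-htb1.

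Copies of 1 histone differed in their DNA and hardly in their protein. The 3 H3 genes encoded the same residues at all 136 positions, start codon included, and so did the 3 H4 genes at 103. Between H3 genes 46 bases differed for hht1 and hht2, 30 for hht1 and hht3 and 48 for hht2 and hht3, of 408 bases compared. That left 88.7%, 92.6% and 88.2% of the bases identical. Of the 309 coding bases of H4, 27 differed between hhf1 and hhf2, 21 between hhf1 and hhf3 and 27 between hhf2 and hhf3. Nearly all of these differences in H3 and H4 fell on the third base of a codon, for example 44 of 46 between hht1 and hht2 and 27 of 27 between hhf1 and hhf2.

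The proteins differed for H2A. hta1 encoded 132 residues and hta2 131, of which 97.7% of aligned positions were identical. The 2 substituted positions, 121 and 125 of hta1, and the 1 residue missing from hta2, at 124, all lay in the C-terminal tail. The 2 genes differed at 51 of 393 compared bases, 47 of them on the third base of a codon.

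**Figure D4:**
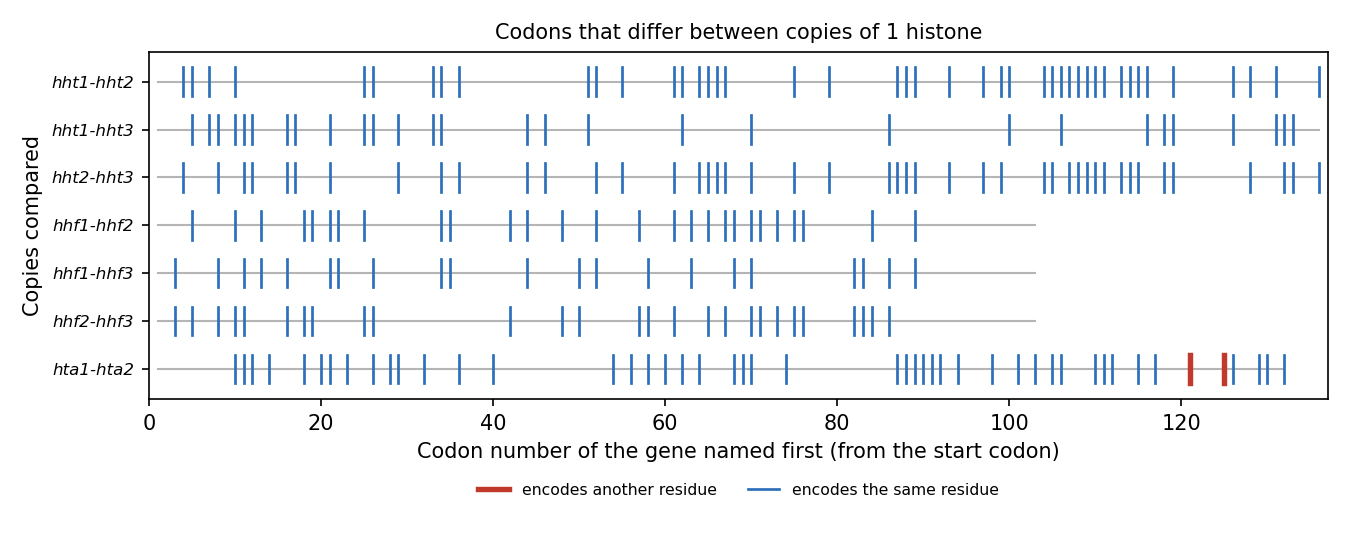
Position of each codon that differs between 2 copies of the same histone, counted from the start codon of the gene named first. Blue ticks encode the same residue and red ticks another one: all ticks of the H3 and H4 pairs are blue, and the 2 red ticks lie at codons 121 and 125 of hta1, while the codon that hta2 lacks is not drawn.

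The codon of the lysine that the study's antibodies read differed between copies as well. With the start codon counted as the first, lysine 9 is codon 10 of each H3 gene. It was AAG in hht1, while hht2 and hht3 had AAA there. Lysine 4, the substrate of Set1, had AAA in hht1 and AAG in the other two. Lysine 14, a residue that Mst2 acetylates, had AAG in all 3 genes. G or C took 32.4% to 47.6% of the third codon positions, with a median of 37.4% in the members, against 32.8% in all genes. The ends of this range were hht3, whose share 45.2% of genes did not exceed, and htb1, whose share 97.2% did not exceed.

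None of the members lay inside a centromere. Closest was the hhf2-hht2 pair, to the left of the centromere of chromosome II, with 237433 bases from hhf2 and 236599 from hht2. The other 7 lay to the right of their centromeres. The distances were 263024 bases for hta2 on chromosome I, 274140 and 275355 for hta1 and htb1 on chromosome III, and 909351 and 910310 for hhf1 and hht1 on chromosome I. Farthest were hht3 and hhf3, at 1890591 and 1891558 bases on chromosome II. The annotated reporters were also far away: the endogenous one lay 769249 bases to the right of hht2 and 1398390 to the left of hht3. The ectopic one lay 1292156 bases to the left of hta1.

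No AACCCT was found at the listed genes of histone variants, histone gene regulators and histone chaperones, 0 of 21, against 9.7% of all promoters. The list held cnp1 (the centromeric H3 variant CENP-A), pht1 (H2A.Z), ams2, teb1, and genes of the HIRA, CAF-1 and FACT complexes, Asf1, Spt6, the NAP family, the CENP-A chaperones, Hat1 and Mis16. Of these 21, 14 had no intron, against 51.9% of all protein-coding genes, and 18 were overlapped by a non-coding gene on the other strand, against 75.5%. The cnp1 gene had no intron, 363 coding bases and a 3′ untranslated part of 1200 bases. pht1, also without an intron, had 420 coding bases and a 5′ part of 383 bases. ams2 had 1 intron and 2094 coding bases. cnp1 lay on the plus strand of chromosome II, 8115 bases to the right of hhf3, with 5 protein-coding genes between them.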

How the data were processed

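Per the labels' protocols, cells were grown in YEA at 32 °C and fixed in 1% formaldehyde for 15 min. Trimmomatic and BWA are named, without versions, in the submitters' processing notes, and the alignment build is not given in the sources used here. Both deposited files are annotations: the authors give feature starts and ends in bases, with PomBase as source in one and export from Geneious 7.1.5, per the file headers, in the other. Neither holds counts, so read depth is unknown and no test was made.

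Introns were gaps between the coding and untranslated rows of the first listed mRNA. Overlaps needed 1 base. Divergent pairs were adjacent protein-coding genes by start, left on minus and right on plus, with overlapping pairs included. Sequences, codons and words came from the NCBI RefSeq assembly ASM294v3, in its coordinates; all other positions are those of the annotation named. The sequence of 1 element is not reported here. Functions were tested on simulated data. Python 3.11.15, numpy 2.4.6, Biopython 1.88 and matplotlib 3.10.9 were used. The members, lists and named genes (all members, their nearest and overlapping genes, cnp1, pht1 and ams2) were chosen with earlier results of these data known.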

Additional observations from a re-analysis of the deposited data

How the results depend on the processing

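Of 45 alternatives, 21 kept their value, 24 moved it and 0 changed its sign. Among these alternatives a change of sign was hardly possible, because nearly all values are counts, shares, lengths or identities. The gaps between gene starts in the ectopic-site annotation were not among the alternatives. These were -3 bases for hhf2-hht2 and -1 for hht3-hhf3, against 134 and 201 in the endogenous-site annotation. Both would have counted as a change of sign. Kept means a count within 1.5 times of its value, a share within its 95% Wilson interval and a length where equal. Each moved value follows from what the alternative counts. No paired analysis was possible because annotations carry no replicate and no result comes from a test.

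From coding starts, in either annotation, the gaps were 432 bases (hhf1-hht1), 334 (hhf2-hht2) and 237 (hht3-hhf3), and 561 for hta1-htb1 in the endogenous-site annotation. With overlapping genes left out, the first gene on the 5′ side was a member for 4 members among all genes and for 8 among protein-coding genes. With overlapping genes counted as 0 bases away, the median distance to the nearest gene was 0 and 134 bases. From coding rows alone, 53.5% of protein-coding genes had no intron. The members' median 5′ length was 138 bases in the ectopic-site annotation, below that of all genes (155), whereas at 97 it was above (79) in the endogenous-site annotation. This setting was added after seeing the data. From midpoints the median distance to the centromere was 309 kb, against 275 kb from the nearest ends. The ectopic-site annotation had no centromere feature, so that alternative gave no value. With at least 50% of a member overlapped, the count was 3 for any gene and 3 for non-coding genes, against 45.7% and 34.6% of all protein-coding genes. On the strand of the gene alone, AACCCT was in 5 member promoters and in 4.95% of all. Median identity over coding bases was 88.7% for H3, 91.3% for H4 and 87.0% for H2A. Pairs as close as the H3-H4 pairs made up 22.0% from coding starts and 86.4% with all genes as neighbours. With limits of 50 and 200 bases, added after seeing the data, non-coding genes ended near the other start in 2 and 4 histone pairs, against 3.87% and 16.3% of divergent pairs.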

Other observations

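The tandem word AACCCTAACCCT occurred 19 times on the 3 chromosomes of ASM294v3, in each case outside coding sequences, and 14 of these were not at a core histone gene. Of the 19, 16 lay in a promoter window, and besides those of the 9 members 11 protein-coding promoters held it. These 11 were found by looking at the matches and were not on any list. They included the chaperone genes ssa1 and ssa2 (Hsp70) and hsp90, and the translation factor genes eft201 (elongation factor 2) and tif51 (eIF5A). The others were tbp1, the TATA-binding protein gene, spi1, the Ran GTPase gene, bdf2, ppc89, erg1 and SPAC27E2.11c. Whether any kind of gene holds the word more often than others was not tested.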
